A study of Mus musculus with 8 samples.

Results

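Tubulins, kinesins and cytoplasmic dynein form the tracks and motors of microtubule transport, and 60 of their genes were compared between *Bbs8*-/- and *Bbs8*+/+ retinal pigment epithelium (RPE). Genes were taken by symbol: alpha, beta, gamma, delta and epsilon tubulins, the kinesins other than the ciliary motors *Kif3a*, *Kif3b*, *Kif7* and *Kif17*, the kinesin light chains, kinectin, the subunits of cytoplasmic dynein 1, and the dynactin subunits *Dctn1* to *Dctn6*. Of 82 symbols that matched, 60 reached 1 CPM, a unit that scales counts to the size of the library, in 4 or more of the 8 libraries and were tested among 12889 genes, and 22 did not. RPE was isolated at postnatal day 29 (P29) from 4 *Bbs8*-/- mice and from 4 *Bbs8*+/+ littermates and sequenced as 1 library per animal, all on a C57/Bl6 background, with each animal taken as a biological replicate. *Bbs8*, annotated as *Ttc8*, encodes a subunit of the BBSome, a complex that moves membrane proteins in cilia. The deletion was not restricted to the RPE, so the photoreceptors that face the RPE in these mice also lacked *Bbs8*. The RPE was peeled from the eye as sheets after trypsin, and no cell sorting is described.

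Microtubules are polymers of alpha and beta tubulin. Most kinesins walk along them toward the plus end, and cytoplasmic dynein 1, with its cofactor dynactin, walks toward the minus end. In RPE cells these motors carry melanosomes and the phagosomes that hold shed photoreceptor outer segments, and ciliary transport relies on kinesin-2 and dynein 2.

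Each library held between 2389835 and 3093428 counts on genes, and 3 counts in one library stood for 0.970 to 1.26 CPM. This floor takes in the error of counting alone. Each transcript was read at its 3′ end only, so levels can be set side by side between genes, and CPM values are scaled by edgeR's TMM factors. *Ttc8* was at 105, 142, 144 and 116 counts in the *Bbs8*+/+ libraries and at 15, 5, 14 and 15 counts in the *Bbs8*-/- libraries, below all *Bbs8*+/+ libraries. The 14 RPE markers looked at all passed the filter, though *Best1* was near the floor at 1.06 ± 0.854 CPM and 0.937 ± 1.09 CPM. In *Bbs8*-/- RPE 4 of them rose (*Ttr*, *Otx2*, *Slc16a8* and *Krt8*) and 3 fell (*Rpe65*, *Rdh5* and *Pmel*). The summed level of the 14 was 37446 to 38648 CPM in *Bbs8*+/+ and 46256 to 49790 CPM in *Bbs8*-/- libraries. *Ttr*, transthyretin, supplied this rise (20932 ± 539.9 CPM and 31747 ± 1397 CPM), and without it the sums were 16777 to 17644 CPM in *Bbs8*+/+ and 16222 to 16598 CPM in *Bbs8*-/- libraries. Markers of other cells were present as well, and the counts that follow are of genes past an adjusted p of 0.05 in the edgeR test described below. The sums take in every listed gene, tested or not. Rod markers fell in *Bbs8*-/- for 17 of 18 genes, with sums of 66274 to 70590 CPM in *Bbs8*+/+ and 27870 to 28739 CPM in *Bbs8*-/- libraries. Lens markers fell for 13 of 13 tested genes, from sums over 14 listed genes of 2254 to 2342 CPM to sums of 346.5 to 391 CPM. Of the 13, *Gja3* was at 0 CPM in every *Bbs8*-/- library and reached the filter through the *Bbs8*+/+ libraries alone. The direction of its change was therefore set by the filter. Erythrocyte markers fell for 5 of 6 tested genes, and sums over 8 listed genes went from 5155 to 5719 CPM to 1985 to 2218 CPM. Cone markers rose for 5 of 9 genes, with sums of 173 to 223 CPM and 299 to 341 CPM. Müller glia markers rose for 3 of 9 genes (*Glul*, *Dkk3* and *Gfap*) and fell for 1 (*Rax*), with sums of 1316 to 1554 CPM and 1900 to 2064 CPM. Of 8 surface epithelial genes listed, 4 keratins were tested. These 4 reached the filter through the *Bbs8*-/- libraries alone, so the direction of their change was set by the filter. Sums over the 8 genes were 0.34 to 2.61 CPM and 36.2 to 61.6 CPM, and *Krt12* and *Dsg3* were at 0 in every library. *Bbs8*+/+ replicate 1 differed more from the other *Bbs8*+/+ libraries than these did from each other (chi-square per gene of 6.07 to 7.50 against 2.87 to 3.41).

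In *Bbs8*-/- RPE 7 of the 60 genes fell and 2 rose, and the fall with the smallest adjusted p was that of the motor subunit of dynein. *Dync1h1*, the dynein heavy chain, fell by 40.3%. *Dync1i2*, its main intermediate chain, fell by 27.8%, and *Kif1b*, a carrier of mitochondria and vesicle precursors, fell by 22.2%. *Ktn1*, *Klc2*, *Kif21b* and *Tube1* also fell, and *Tubb2a* and *Kif5b* rose. These 9 genes passed an adjusted p of 0.05 in edgeR's quasi-likelihood test, two-sided, with Benjamini-Hochberg adjustment over the 12889 genes tested, which is the test behind every adjusted p given here for a single gene. Among all tested genes 12.3% passed this threshold, 5.46% with a rise and 6.80% with a fall. The 9 genes were 15.0% of the 60, with 2 rises (3.33%) and 7 falls (11.7%), a share near that of all genes. Without regard to the threshold, means were higher in *Bbs8*-/- RPE for 21 of the 60 genes and lower for 39 (30 and 30 with scaling by library size alone), and 17 had an unadjusted p under 0.05, 4 of them higher and 13 lower. The median log2 fold change of the 60 was −0.09, and that of all tested genes was 0.02. Among genes with a mean of 10 CPM or more the median was −0.15 for 43 transport genes and −0.01 for all 8428 genes, and 18.6% and 17.3% passed the threshold. For 10 of the 60 genes, 3 higher and 7 lower, the ranges of the genotypes were separate, as they were for 16.0% of all tested genes (7.42% higher and 8.62% lower). In a bulk sample, fewer cells of one type and less RNA per cell cannot be told apart, and rod, lens and erythrocyte markers fell across the same libraries as the 7 genes that fell. Of cone markers 5 of 9 and of Müller glia markers 3 of 9 rose across the same libraries as *Tubb2a* and *Kif5b*, and 1 Müller glia marker fell. Keratins nearly absent from *Bbs8*+/+ libraries were present in these *Bbs8*-/- libraries. Of 14 RPE markers 4 rose and 3 fell, and of 6 fibroblast markers 2 fell and none rose. The part of these cells in either direction was not tested. With scaling factors computed without rod, cone, lens and erythrocyte genes, the counts were again 2 rises and 7 falls, an alternative that changes the scaling and not the cells sampled.

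**Figure D1:**
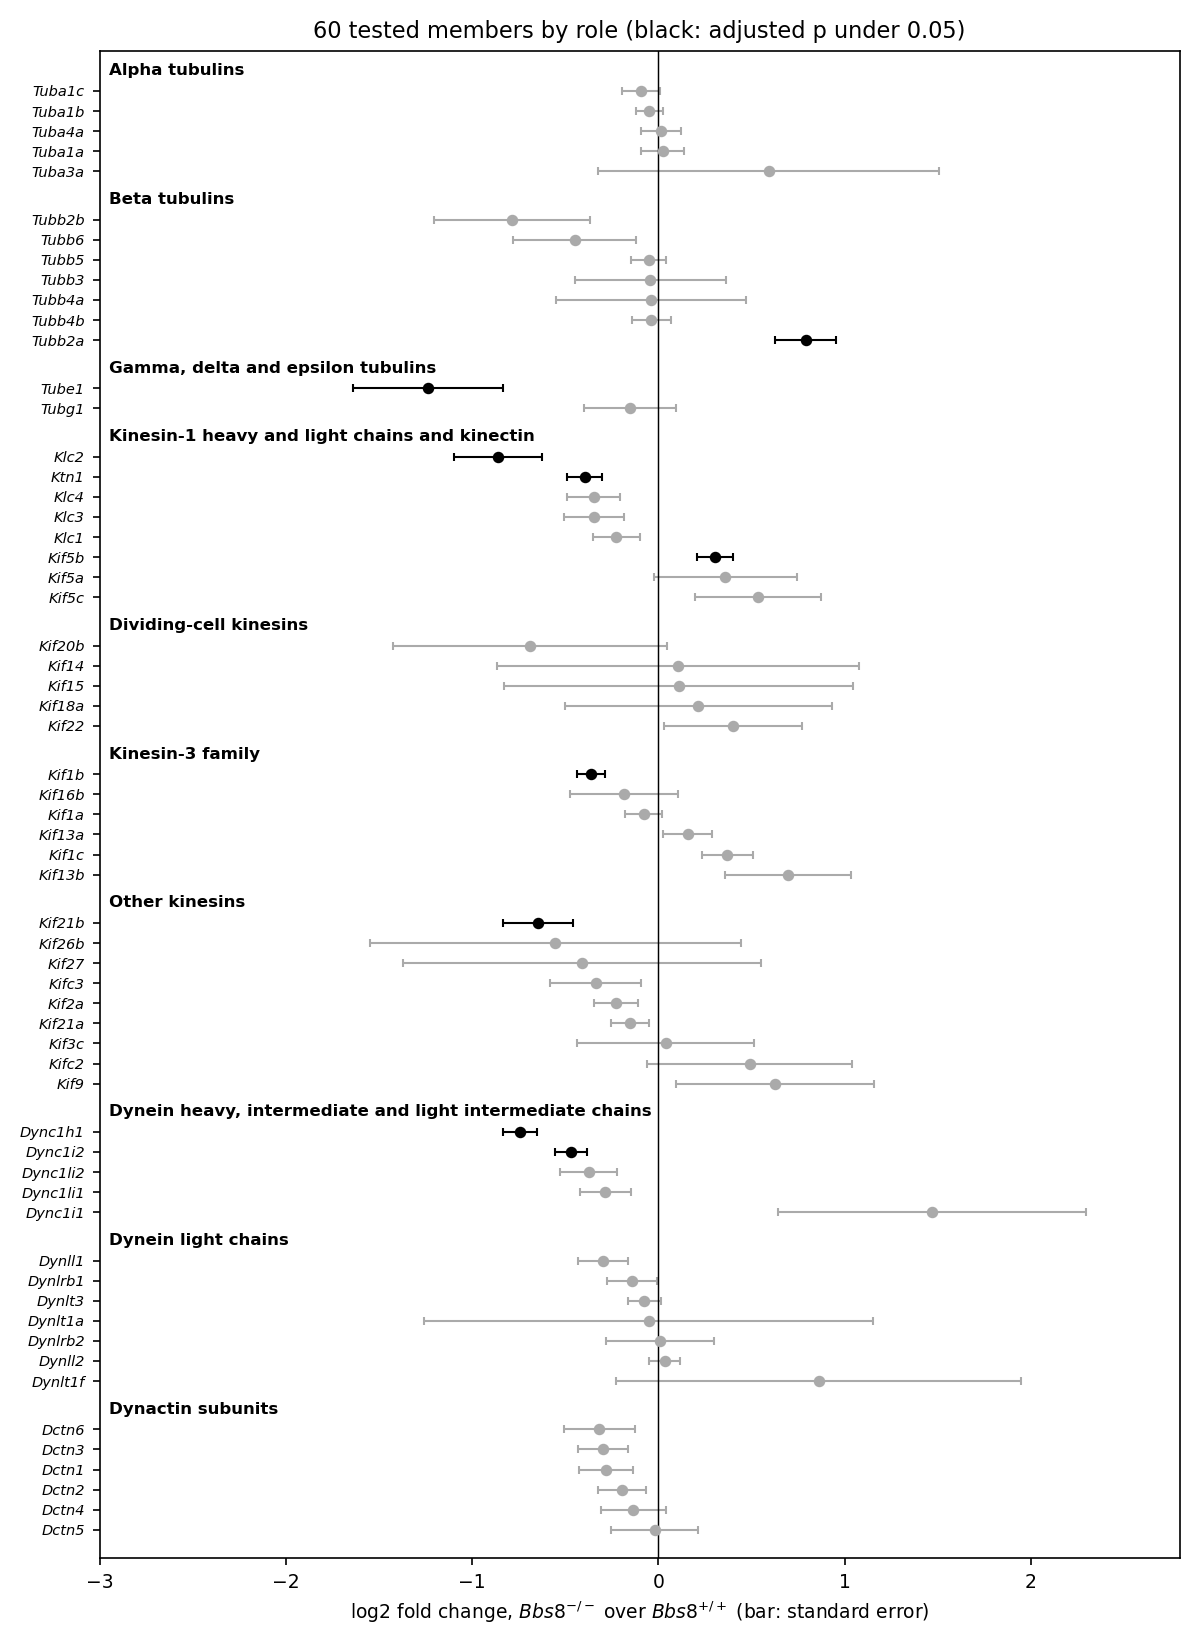
Log2 fold change (*Bbs8*-/- over *Bbs8*+/+, horizontal axis) of the 60 tested genes, grouped by role, with bars for the standard error and black points for an adjusted p under 0.05. The black points lie to the left of 0 for 7 genes and to the right for *Tubb2a* and *Kif5b*, all 6 dynactin subunits lie left of 0 (5 of 6 with scaling by library size alone), and the 4 most abundant alpha tubulins lie close to 0.

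Of the 5 heavy, intermediate and light intermediate chains of dynein, 2 fell past the threshold, 2 had lower means and 1 a higher mean. *Dync1h1* (ENSMUSG00000018707, chromosome 12 of GRCm38 from 110601452 to 110666945, forward strand) encodes the heavy chain, which holds the ATPase motor and the microtubule-binding stalk. It was at 954, 681, 639 and 818 CPM in *Bbs8*+/+ replicates 1 to 4 and at 459, 451, 462 and 475 CPM in *Bbs8*-/- replicates 1 to 4. All *Bbs8*-/- values lay below the lowest *Bbs8*+/+ value, and the *Bbs8*-/- libraries lay much closer together than the *Bbs8*+/+ libraries. The means were 773 ± 143 CPM and 462 ± 9.72 CPM (SD, n = 4 libraries per genotype, as for all values below), so that the log2 fold change was −0.74 (SE, the standard error, 0.0913, adjusted p = 6.89e-08). Without *Bbs8*+/+ replicate 1, which held the highest value, the log2 fold change was −0.63 (edgeR adjusted p = 3.34e-10). Exons of *Dync1h1* overlap the predicted genes *Gm17111* and *Gm35558* on the other strand, and whether counting used strand is not given in the sources used here.

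*Dync1i2* (ENSMUSG00000027012, chromosome 2 from 71211706 to 71263303, forward strand) encodes an intermediate chain, which ties the heavy chain to dynactin and to the light chains. Its levels in the *Bbs8*+/+ libraries were 479, 441, 394 and 456 CPM, and those in the *Bbs8*-/- libraries were 311, 330, 320 and 318 CPM. Again the genotypes did not overlap, and the log2 fold change was −0.47 (SE 0.0848, adjusted p = 9.03e-05). The other intermediate chain, *Dync1i1*, which is known from neurons, was near the detection floor at 1.67 ± 0.884 CPM and 4.67 ± 4.15 CPM, with 0 counts in *Bbs8*-/- replicate 1 and 25 in replicate 4 (log2 fold change 1.47, adjusted p = 0.293). *Dync1i2* therefore made up 99.6% of intermediate chain counts in *Bbs8*+/+ and 98.6% in *Bbs8*-/- libraries.

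The light intermediate chains, which bind the adaptors that connect dynein to its cargo, did not pass the threshold. *Dync1li1* was at 109 ± 18.5 CPM and 89.7 ± 13.2 CPM (log2 fold change −0.28, 95% interval −0.55 to −0.01, adjusted p = 0.204). For *Dync1li2* the levels were 85.4 ± 14.1 CPM and 66.1 ± 10.9 CPM (log2 fold change −0.37, 95% interval −0.67 to −0.08, adjusted p = 0.114). Both had an unadjusted p under 0.05 and lower means in *Bbs8*-/- RPE, and the ranges of the genotypes overlapped for each. Summed over the 5 genes of this group, the levels were 1627, 1344, 1217 and 1461 CPM in *Bbs8*+/+ libraries and 928, 923, 932 and 984 CPM in *Bbs8*-/- libraries. These ranges did not overlap with scaling by library size alone either (1193 to 1554 and 946 to 1029 CPM), and *Dync1h1* supplied most of the difference in CPM.

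Promoter sequences are shown for the dynein genes with the most significant falls and for the tubulin gene that rose, so that their start regions can be set side by side. They are from RefSeq on GRCm38.p6, run from 250 bases before to 50 bases after the annotated start, and are printed 5′ to 3′ on the strand of the gene. The regions are chr12:110601145-110601444 on the forward strand for *Dync1h1*, chr2:71211456-71211755 on the forward strand for the first of 2 annotated starts of *Dync1i2*, and chr13:34077959-34078258 on the reverse strand for *Tubb2a*. Capitals mark the letters of any of 5 motifs searched on both strands: the GC box (GGGCGG), the TATA box (TATAAA), the CCAAT box (CCAAT), the E-box (CACGTG) and the core shared by the eye factors OTX2 and CRX (TAATCC).
Dync1h1: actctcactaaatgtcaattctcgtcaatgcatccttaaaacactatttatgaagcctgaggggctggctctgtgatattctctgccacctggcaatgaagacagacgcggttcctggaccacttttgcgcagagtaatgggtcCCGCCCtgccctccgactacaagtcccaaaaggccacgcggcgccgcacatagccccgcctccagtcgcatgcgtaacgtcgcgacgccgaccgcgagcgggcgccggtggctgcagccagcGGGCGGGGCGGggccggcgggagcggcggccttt
Dync1i2: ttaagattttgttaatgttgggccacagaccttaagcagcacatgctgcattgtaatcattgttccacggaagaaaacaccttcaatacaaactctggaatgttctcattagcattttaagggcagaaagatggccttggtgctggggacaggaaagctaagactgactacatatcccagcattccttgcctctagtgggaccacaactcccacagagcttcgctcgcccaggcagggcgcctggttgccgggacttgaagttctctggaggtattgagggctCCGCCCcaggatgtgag
Tubb2a: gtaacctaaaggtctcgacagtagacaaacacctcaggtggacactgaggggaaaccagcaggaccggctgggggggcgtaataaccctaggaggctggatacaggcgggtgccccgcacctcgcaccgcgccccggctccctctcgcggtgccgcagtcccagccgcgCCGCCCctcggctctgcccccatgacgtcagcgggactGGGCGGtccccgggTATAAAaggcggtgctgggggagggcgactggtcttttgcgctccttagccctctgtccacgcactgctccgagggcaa
The *Dync1h1* region held GC boxes whose first base lies at −106, 16 and 21 from the start, the last of which share 1 base, and the *Dync1i2* region held a single GC box at 33. The *Tubb2a* region held GC boxes at −81 and −43 and a TATA box at −29. No CCAAT box, E-box or OTX2 and CRX core occurred in these 3 windows. GC boxes were found in 61.8% of 12850 RefSeq promoters of tested genes and in 67.9% of the 53 promoters of the 45 transport genes that matched by symbol, and TATA boxes in 7.39% and 13.2%. OTX2 and CRX cores were in 6.10% and 9.43% of these promoters, E-boxes in 9.74% and 7.55%, and CCAAT boxes in 37.6% and 37.7%. The 15 other tested transport genes had no match in the promoter table.

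**Figure D2:**
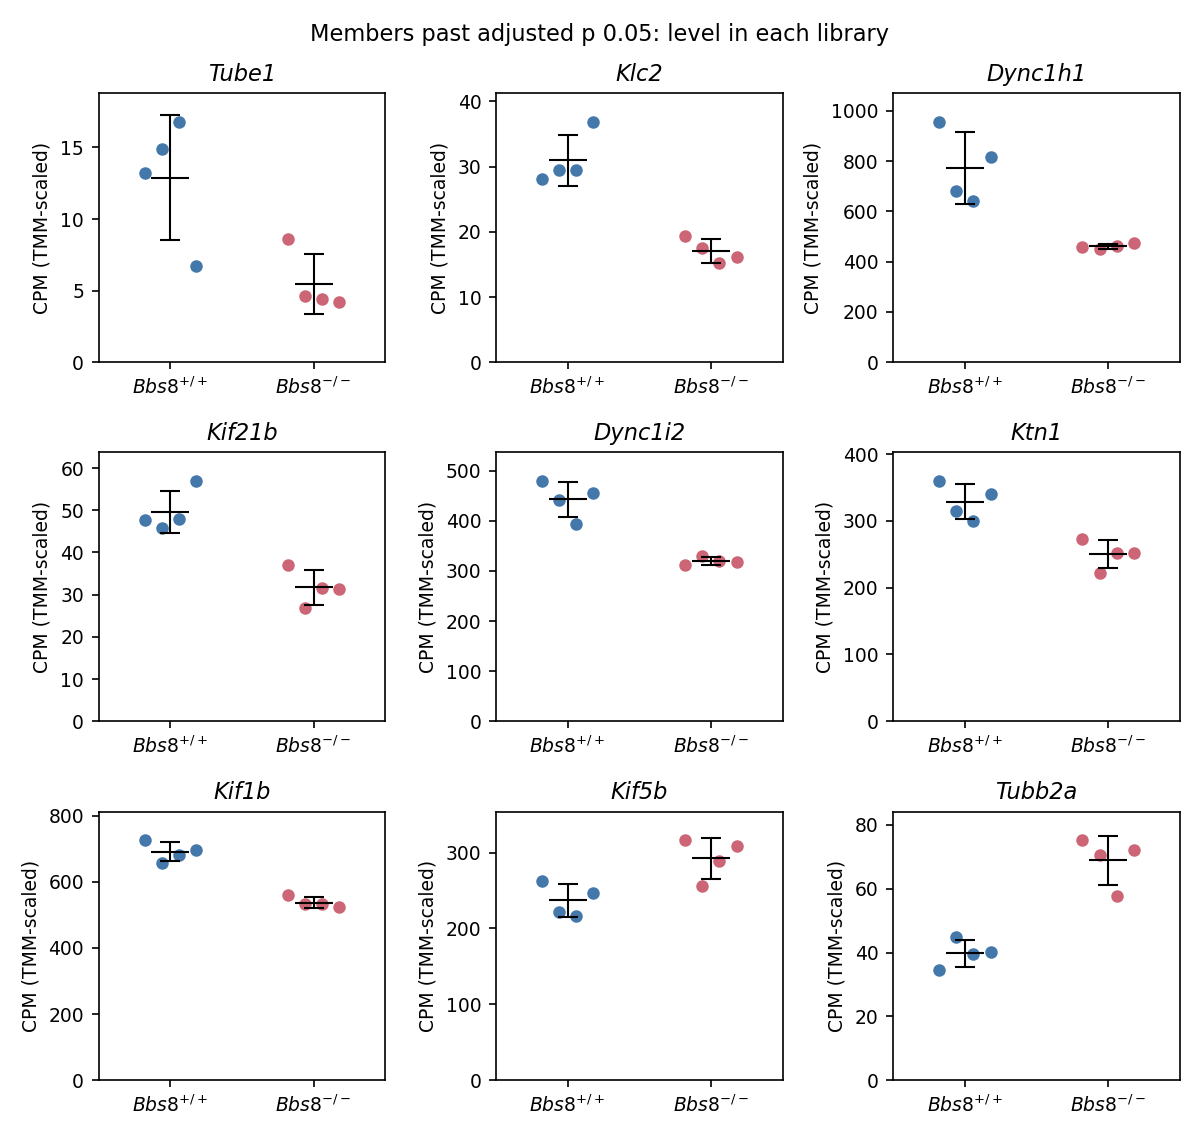
TMM-scaled CPM (vertical axes, from 0) in each of the 4 *Bbs8*+/+ (blue) and 4 *Bbs8*-/- (red) libraries for the 9 genes with an adjusted p under 0.05, with the mean and SD in black. The genotypes overlap for *Tube1* and *Kif5b* and are separate for the other 7 genes, and the *Bbs8*-/- libraries of *Dync1h1* and *Dync1i2* lie within 451 to 475 CPM and 311 to 330 CPM.

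None of the 7 dynein light chains passed the threshold. The light chains bind the tail of the complex, and several also serve other proteins. *Dynll2*, the most abundant, was at 405 ± 33.8 CPM in *Bbs8*+/+ and 415 ± 16.0 CPM in *Bbs8*-/- RPE, a log2 fold change of 0.03 with a 95% interval of −0.13 to 0.20. *Dynlt3* was at 335 ± 17.0 CPM and 318 ± 25.1 CPM (95% interval −0.25 to 0.10). Both intervals exclude a fall of the size seen in *Dync1i2*. *Dynll1*, the close relative of *Dynll2*, was at 94.4, 129, 139 and 118 CPM in *Bbs8*+/+ and at 99.4, 78.8, 110 and 103 CPM in *Bbs8*-/- libraries (log2 fold change −0.30, edgeR adjusted p = 0.164). It passed the threshold once *Bbs8*+/+ replicate 1, its lowest *Bbs8*+/+ library, was left out (log2 fold change −0.40, adjusted p = 0.0288). *Dynlrb1* was at 115 ± 13.7 CPM and 105 ± 20.5 CPM, and *Dynlrb2* at 14.8 CPM in both genotypes. *Dynlt1a* and *Dynlt1f* had means under 2 CPM and share 12.3% and 66.8% of the 100-base windows in their last 400 transcript bases with other loci, so unique reads undercount them.

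All 6 dynactin subunits had lower means in *Bbs8*-/- RPE, apart from *Dctn5* with scaling by library size alone (log2 fold change 0.07), and none passed the threshold. Dynactin links dynein to cargo and lengthens its runs. Their log2 fold changes ran from −0.32 for *Dctn6* to −0.02 for *Dctn5*, with a median of −0.24 and adjusted p between 0.161 and 0.978. *Dctn3*, a subunit of the shoulder of the complex, was at 101 ± 10.0 CPM and 82.5 ± 10.9 CPM (log2 fold change −0.30, adjusted p = 0.161) and was the single subunit with an unadjusted p under 0.05. *Dctn2*, or dynamitin, was at 101, 95.1, 97.3 and 95.9 CPM in *Bbs8*+/+ and at 86.2, 71.3, 90.8 and 91.9 CPM in *Bbs8*-/- libraries, which did not overlap (log2 fold change −0.19, adjusted p = 0.401). *Dctn1*, the subunit p150Glued that binds microtubules, was at 84.9 ± 7.71 CPM and 70.0 ± 12.0 CPM (adjusted p = 0.250). The 6 levels added up to 397 to 461 CPM in *Bbs8*+/+ libraries and 343 to 378 CPM in *Bbs8*-/- libraries. This gap was not tested, and with scaling by library size alone the ranges overlapped (382 to 452 and 359 to 391 CPM).

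Kinesin-1 changed in both directions. Kinesin-1 is a tetramer of *Kif5* heavy chains, which are the motors, and light chains, which bind cargo. *Kif5b* (ENSMUSG00000006740), the heavy chain found in most tissues, was at 263, 221, 217 and 247 CPM in *Bbs8*+/+ and at 316, 256, 288 and 309 CPM in *Bbs8*-/- libraries. *Bbs8*-/- replicate 2 lay below *Bbs8*+/+ replicate 1, and the other libraries were separate. The means of 237 ± 21.9 CPM and 293 ± 26.9 CPM set the log2 fold change at 0.30 (SE 0.0967, adjusted p = 0.0321). This call was lost in 6 of the 8 fits that left out one library, those without *Bbs8*+/+ replicates 2, 3 or 4 or *Bbs8*-/- replicates 1, 3 or 4 (adjusted p of 0.0602 to 0.129), and in edgeR's likelihood ratio test (adjusted p = 0.0532). The other heavy chains were scarce, with *Kif5a* at 12.4 ± 9.34 CPM and 16.0 ± 3.77 CPM (log2 fold change 0.36, adjusted p = 0.642). *Kif5c* was at 9.82, 10.4, 9.40 and 7.43 CPM in *Bbs8*+/+ and at 11.5, 18.3, 13.6 and 10.5 CPM in *Bbs8*-/- libraries, which did not overlap but gave an adjusted p of 0.364 in the edgeR test. *Kif5b* made up 91.8% of heavy chain counts in *Bbs8*+/+ and 90.8% in *Bbs8*-/- libraries.

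The 4 kinesin light chains all had lower means in *Bbs8*-/- RPE under each of the 4 scalings tried, and 1 of them passed the threshold. *Klc2* (ENSMUSG00000024862, chromosome 19 from 5107746 to 5118560, reverse strand) was at 28.1, 29.5, 29.4 and 36.8 CPM in *Bbs8*+/+ and at 19.3, 17.6, 15.2 and 16.1 CPM in *Bbs8*-/- libraries. These did not overlap, and *Klc2* fell by 44.9% (log2 fold change −0.86, SE 0.235, adjusted p = 0.0103). Without *Bbs8*+/+ replicate 4, the highest library, its adjusted p was 0.0595 with a log2 fold change of −0.77. *Klc1*, the most abundant light chain, was at 151 ± 27.5 CPM and 129 ± 17.4 CPM (log2 fold change −0.23, adjusted p = 0.286). *Klc3* and *Klc4* each had a log2 fold change of −0.35, with adjusted p of 0.182 and 0.121. Exons of *Klc2* and *Kif5b* also overlap predicted genes on the other strand. Those of *Klc1* overlap *Xrcc3*, and those of *Klc3* overlap *Ercc2*, again on the other strand. *Klc2* was 8.98% of light chain counts in *Bbs8*+/+ and 6.17% in *Bbs8*-/- libraries, whose ranges of 7.14% to 11.2% and 5.32% to 7.09% did not overlap.

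*Ktn1* (ENSMUSG00000021843, chromosome 14 from 47648448 to 47739894, forward strand) encodes kinectin, a membrane protein of the endoplasmic reticulum that binds kinesin-1. It was at 359, 314, 300 and 340 CPM in *Bbs8*+/+ and at 273, 223, 252 and 251 CPM in *Bbs8*-/- libraries. The genotypes were separate, with means of 328 ± 26.3 CPM and 250 ± 20.8 CPM and with the log2 fold change at −0.40 (SE 0.0931, adjusted p = 0.00254).

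Among the 6 kinesin-3 genes, which carry vesicles and organelles, 1 fell and none rose. *Kif1b* (ENSMUSG00000063077, chromosome 4 from 149176319 to 149307693, reverse strand) was the most abundant kinesin in these libraries. Its levels were 725, 657, 681 and 697 CPM in *Bbs8*+/+ and 560, 532, 532 and 524 CPM in *Bbs8*-/- libraries. The gap between the genotypes was wider than the range of the *Bbs8*-/- libraries, and the log2 fold change was −0.36 (SE 0.0745, adjusted p = 0.000531). *Kif1a*, its neuronal relative, was at 253 ± 32.7 CPM and 240 ± 20.1 CPM (log2 fold change −0.08, 95% interval −0.28 to 0.12). In the opposite direction, *Kif1c* was at 80.6, 61.9, 85.4 and 89.9 CPM in *Bbs8*+/+ and at 92.4, 114, 106 and 98.2 CPM in *Bbs8*-/- libraries. These did not overlap, but the adjusted p was 0.0720 (log2 fold change 0.37). *Kif13a* and *Kif13b* had log2 fold changes of 0.16 and 0.70 with adjusted p of 0.532 and 0.200 in the edgeR test. *Kif13b* passed the threshold when *Bbs8*+/+ replicate 2, its highest *Bbs8*+/+ library, was left out (log2 fold change 1.11, adjusted p = 0.0474).

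Of 9 other kinesins 1 passed the threshold. *Kif21b* (ENSMUSG00000041642, chromosome 1 from 136131389 to 136177998, forward strand), a kinesin-4 motor that also limits microtubule growth, was at 47.7, 45.9, 47.8 and 56.9 CPM in *Bbs8*+/+ and at 37.0, 26.9, 31.6 and 31.4 CPM in *Bbs8*-/- libraries. With no overlap, the log2 fold change was −0.65 (SE 0.185, adjusted p = 0.0155). Without *Bbs8*+/+ replicate 4 or *Bbs8*-/- replicate 2 the adjusted p was 0.0767 or 0.0583. *Kif21a*, its more abundant relative, was at 175 ± 9.39 CPM and 158 ± 10.5 CPM (log2 fold change −0.15, adjusted p = 0.416), and *Kif2a*, which takes microtubules apart at their ends, at 158 ± 22.5 CPM and 135 ± 15.6 CPM (log2 fold change −0.22, adjusted p = 0.253). Of 12 kinesins that serve cell division, 7 did not reach the filter, and the 5 tested had means of at most 15.0 CPM in either genotype. *Kif22* was at 11.4 ± 4.22 CPM and 15.0 ± 9.31 CPM, and *Kif18a* at 3.35 ± 3.88 CPM and 3.98 ± 1.94 CPM. None of the 5 passed the threshold, and neither did any of 10 tested markers of dividing cells. Summed over all 16 listed markers of dividing cells, levels were 51.5 to 62.3 CPM in *Bbs8*+/+ and 46.0 to 56.4 CPM in *Bbs8*-/- libraries.

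**Figure D3:**
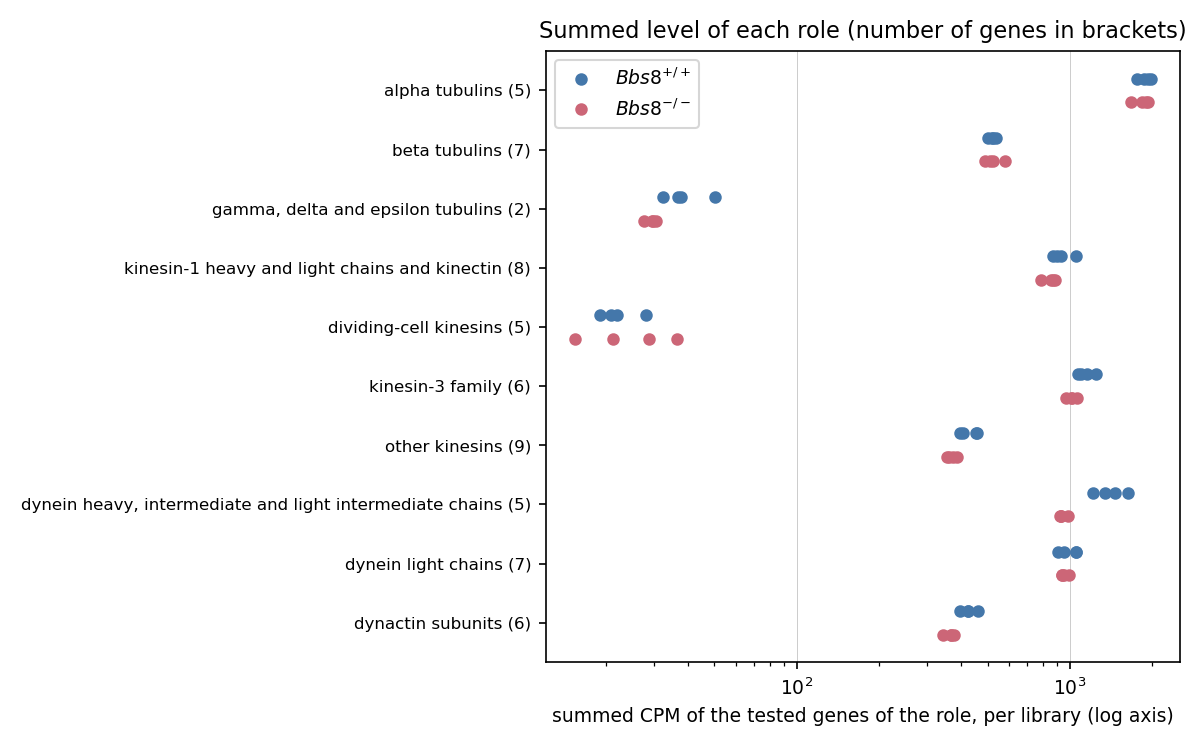
Summed CPM of the tested genes of each role in every library (horizontal log axis), *Bbs8*+/+ in blue and *Bbs8*-/- in red. The genotypes are separate for the heavy, intermediate and light intermediate chains of dynein (1217 to 1627 against 923 to 984 CPM) and for gamma and epsilon tubulin, are separate here but overlap with scaling by library size alone for dynactin, the kinesin-3 family and other kinesins, and overlap for the remaining roles.

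Alpha tubulin transcripts were the most abundant of all these genes, and none passed the threshold. *Tuba1b* was at 1234, 1114, 1168 and 1243 CPM in *Bbs8*+/+ and at 1289, 1200, 999 and 1117 CPM in *Bbs8*-/- libraries. The genotypes overlapped throughout, and the log2 fold change of −0.05 had a 95% interval of −0.19 to 0.09. *Tuba1c*, *Tuba1a* and *Tuba4a* had log2 fold changes of −0.09, 0.02 and 0.01, with intervals that reached no further than −0.29 and 0.25. Together the 5 alpha tubulins amounted to 1762 to 1982 CPM and 1677 to 1935 CPM, and *Tuba1b* made up 63.0% and 62.5% of them. *Tuba1a*, *Tuba1b* and *Tuba1c* share 34.6%, 55.5% and 52.2% of the 100-base windows in their last 400 bases with each other or with further loci, so reads from those stretches could not be assigned to one gene and the split between them is uncertain. Exons of *Tuba1a* and *Tuba1b* also overlap the predicted gene *Gm49450* on the same strand, and the effect of this overlap on their counts was not tested.

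Of 7 beta tubulins 1 rose and none fell. *Tubb2a* (ENSMUSG00000058672, chromosome 13 from 34074274 to 34078007, reverse strand) was at 34.5, 44.8, 39.7 and 40.1 CPM in *Bbs8*+/+ and at 75.1, 70.6, 57.6 and 72.0 CPM in *Bbs8*-/- libraries. Every *Bbs8*-/- library lay above every *Bbs8*+/+ library, and *Tubb2a* was higher by 73.2% (log2 fold change 0.79, SE 0.164, adjusted p = 0.000595). Its share of beta tubulin counts went from 7.67% ± 0.943 to 13.1% ± 1.30. *Tubb5* and *Tubb4b*, the most abundant beta tubulins, were at 260 ± 14.0 and 179 ± 6.58 CPM in *Bbs8*+/+ and at 251 ± 22.6 and 175 ± 21.0 CPM in *Bbs8*-/- RPE. Their 95% intervals on the log2 scale were −0.24 to 0.13 and −0.24 to 0.17. *Tubb2b*, the neighbour and near copy of *Tubb2a*, was at 11.2 ± 6.79 CPM and 6.56 ± 1.55 CPM (log2 fold change −0.78, adjusted p = 0.264). In *Tubb2a*, 18.6% of the windows searched also occur in *Tubb2b*, and such reads are not counted for either gene. *Tubb3*, *Tubb4a* and *Tubb6* were under 20 CPM in every library, and none of them passed the threshold.

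Of the remaining tubulins, the gamma tubulin *Tubg1* and the epsilon tubulin *Tube1* were tested. *Tube1* (ENSMUSG00000019845, chromosome 10 from 39133976 to 39152542, forward strand), needed for the triplet microtubules of centrioles, was at 13.2, 14.9, 16.8 and 6.69 CPM in *Bbs8*+/+ and at 8.62, 4.66, 4.40 and 4.19 CPM in *Bbs8*-/- libraries. *Bbs8*+/+ replicate 4 lay below *Bbs8*-/- replicate 1, at 18 against 21 counts. The fall by 1.24 on the log2 scale (SE 0.404) had an adjusted p of 0.0373 in the edgeR test and was the largest of the 9 in size. It was lost in 6 of the 8 fits without one library, those without *Bbs8*+/+ replicates 1, 2 or 3 or *Bbs8*-/- replicates 2, 3 or 4 (adjusted p of 0.0613 to 0.135). Exons of *Tube1* overlap *Ccn6* on the other strand. *Tubg1*, part of the ring that seeds microtubules, was at 26.4 ± 8.96 CPM and 23.8 ± 3.32 CPM (adjusted p = 0.788).

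**Figure D4:**
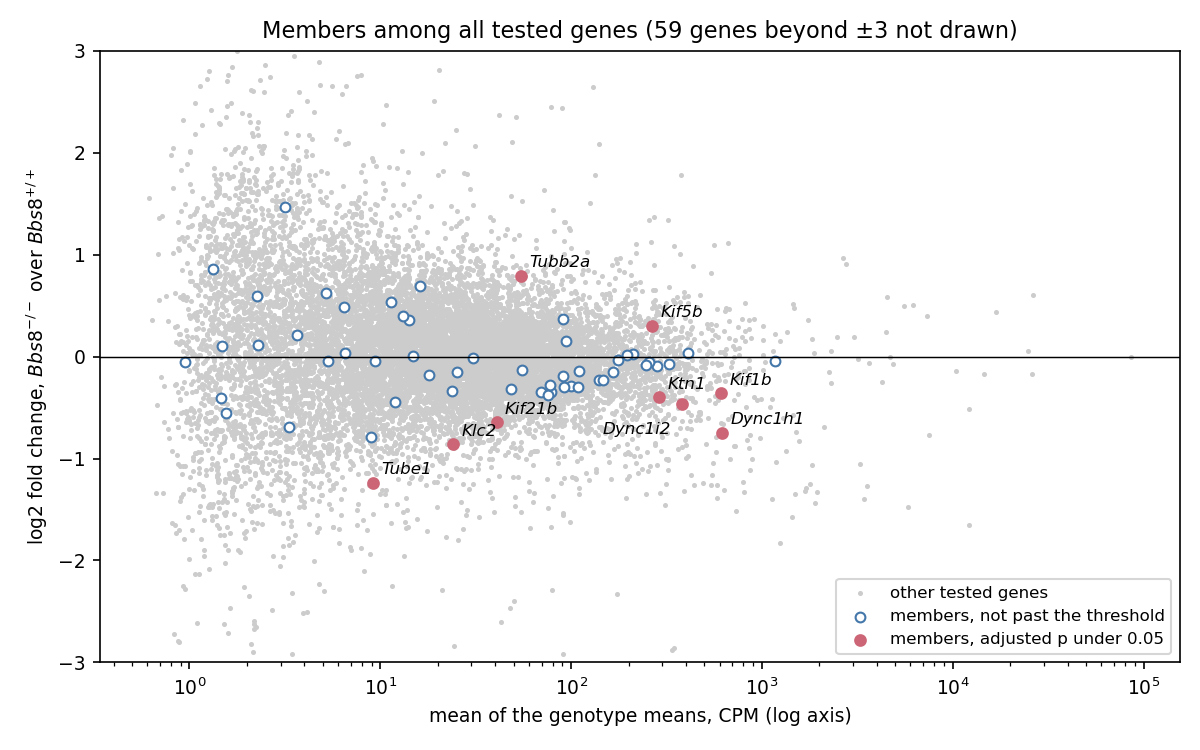
Log2 fold change (vertical axis, *Bbs8*-/- over *Bbs8*+/+) against mean CPM (horizontal log axis) for all tested genes in grey, with the 51 transport genes not past the threshold as open circles and the 9 past it as red points. *Dync1h1* and *Kif1b* are past the threshold at over 600 CPM, *Tube1* at 9.18 CPM, and 59 genes beyond a log2 fold change of 3 in either direction are not drawn.

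Whether related genes differed in response was tested directly for 12 pairs, as the log2 ratio of the first to the second gene in each library, with a two-sided exact permutation test whose smallest p with 4 against 4 libraries is 0.0286. The ratio of *Tubb2a* to *Tubb5* was higher by 0.83 in *Bbs8*-/- libraries (−1.86 ± 0.213 against −2.68 ± 0.194 in *Bbs8*+/+, exact p = 0.0286, adjusted over the 12 pairs 0.137). It was the single pair whose libraries did not overlap. The ratios of *Klc1* to *Klc2*, *Kif1a* to *Kif1b* and *Kif21a* to *Kif21b* were higher by 0.61, 0.29 and 0.48 and that of *Dynll1* to *Dynll2* was lower by 0.33, each with an exact p of 0.0571 and an adjusted p of 0.137. No pair passed after adjustment, which this design could not reach for a single pair among 12. For the other 7 pairs the differences ran from −0.55 for *Kif13a* to *Kif13b* to 1.15 for *Dync1i1* to *Dync1i2*, with adjusted p (exact permutation test) from 0.400 to 0.943.

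Partners of the motors and of microtubules were counted in 4 lists of 125 genes, of which 113 were tested, with 8 rises (7.08%, against 5.46% of all tested genes) and 12 falls (10.6%, against 6.80%). For all tested genes with a mean of 10 CPM or more, the shares were 7.33% with a rise and 9.92% with a fall. Among 21 tested adaptors and regulators of dynein none rose and 3 fell (14.3% past the threshold, against 12.3% of all tested genes). The 3 falls were the cargo adaptors *Bicd2* (log2 fold change −0.57, adjusted p = 0.00401) and *Hook3* (−0.43, adjusted p = 0.00160) and the dynactin filament subunit *Actr1a* (−0.49, adjusted p = 0.0106), and the median of the list was −0.04. Among 14 cargo adaptors of kinesin-1 none rose and 3 fell (21.4% past the threshold). *Rhot1*, *Rhot2* and *Trak1* are known as parts of the adaptor that ties motors to mitochondria, and *Trak2*, of the same adaptor, was at 98.7 ± 6.95 CPM and 102 ± 26.6 CPM (log2 fold change 0.05, adjusted p = 0.886). *Rhot1* was at 180 ± 18.5 CPM and 110 ± 8.33 CPM (log2 fold change −0.72, adjusted p = 9.90e-06), and *Rhot2* and *Trak1* had log2 fold changes of −0.59 and −0.49 with overlapping libraries (adjusted p = 0.00165 and 0.0471). The median of the 14 was also −0.04.

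Of 43 microtubule-associated proteins 6 rose and 5 fell (25.6% past the threshold, against 12.3% of all tested genes), with a median log2 fold change of 0.05. The share past the threshold depends on abundance, and it was 17.3% for all tested genes with a mean of 10 CPM or more. *Camsap1*, which holds free minus ends, was at 232, 181, 232 and 235 CPM in *Bbs8*+/+ and at 126, 116, 100 and 126 CPM in *Bbs8*-/- libraries (log2 fold change −0.91, adjusted p = 7.40e-08). The plus-end proteins *Mapre2* and *Mapre3* fell by 0.89 and 0.84 on the log2 scale (adjusted p = 2.29e-06 and 9.60e-07). *Map1b*, a neuronal microtubule-binding protein, went from 1067 ± 106 CPM to 608 ± 17.5 CPM (log2 fold change −0.81, adjusted p = 8.29e-11). None of these 4 genes overlapped between genotypes. The rises included *Clip3*, from 21.6 ± 3.45 CPM to 45.7 ± 5.45 CPM (log2 fold change 1.09, adjusted p = 0.000194), and the relatives of *Map1b*, *Map1s* (0.85, adjusted p = 0.0443) and *Map1a* (0.59, adjusted p = 0.00460). *Dclk2* had the largest fitted rise (log2 fold change 3.60, adjusted p = 0.0160), but it was at 0, 0.373, 1.23 and 0 CPM in *Bbs8*+/+ and at 9.03, 1.08, 9.20 and 1.40 CPM in *Bbs8*-/- libraries, so the fold rests on counts near the floor and on *Bbs8*-/- replicates 1 and 3. Every *Bbs8*-/- library of *Dclk2* reached 1 CPM, so this gene passed the filter through the genotype in which it was higher. Of 35 genes for tubulin folding and modification 2 rose and 1 fell (8.57% past the threshold), with a median of 0.04. *Agtpbp1*, a carboxypeptidase that trims glutamates from tubulin tails, was at 258, 191, 213 and 227 CPM in *Bbs8*+/+ and at 452, 502, 420 and 509 CPM in *Bbs8*-/- libraries. Every *Bbs8*-/- library lay above every *Bbs8*+/+ library (log2 fold change 1.08, SE 0.0954, adjusted p = 2.47e-11). The 12 falls occurred in the same libraries as the lower rod, lens and erythrocyte markers and as falls of 2 of 6 fibroblast markers. The 8 rises occurred in the same libraries as rises of 5 of 9 cone and 3 of 9 Müller glia markers, of which 1 other fell. Of 14 RPE markers 4 rose and 3 fell there, and keratins nearly absent from *Bbs8*+/+ libraries were present. The part of those cells was not tested.

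**Figure D5:**
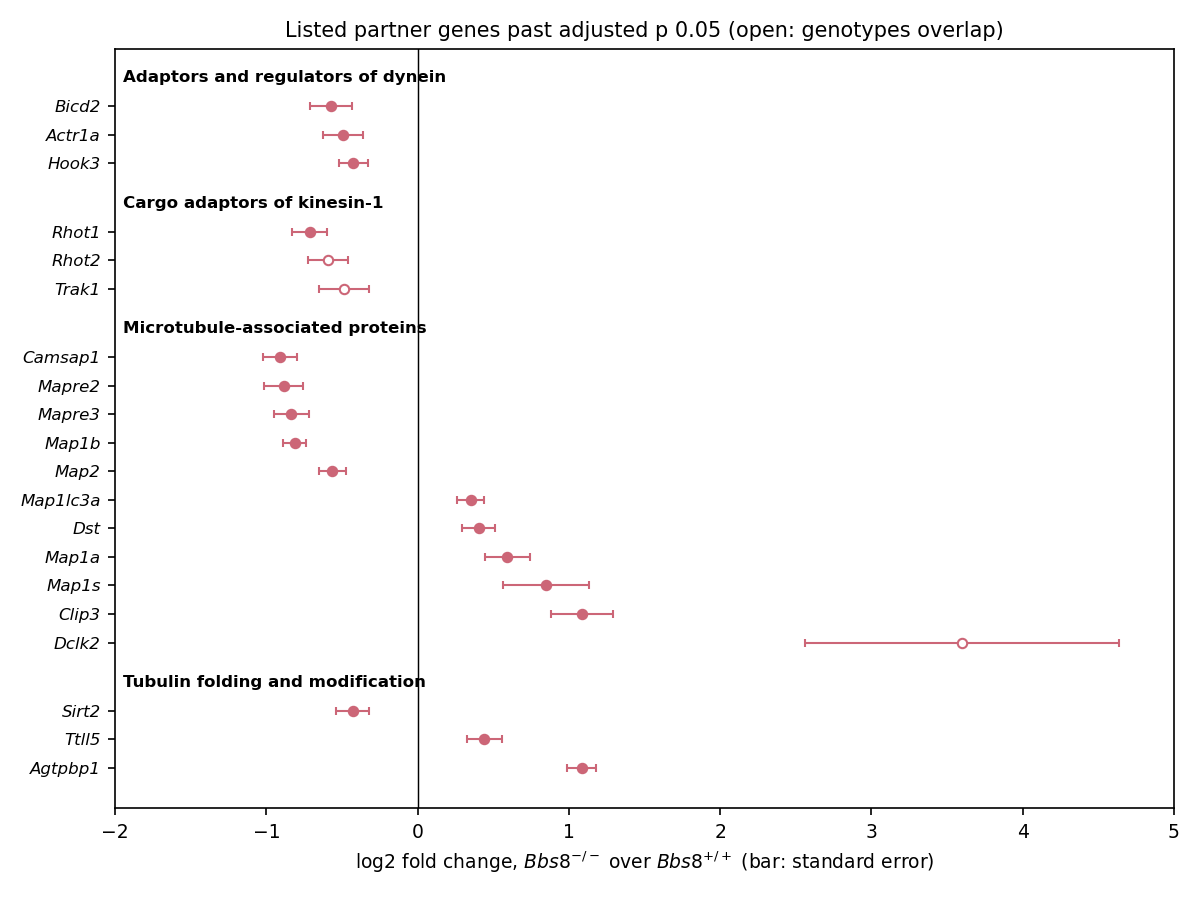
Log2 fold change (*Bbs8*-/- over *Bbs8*+/+, horizontal axis) with its standard error for the 20 listed partner genes with an adjusted p under 0.05, grouped by list, with open points where libraries of the genotypes overlap. The dynein and kinesin-1 adaptors lie left of 0, and the microtubule-associated proteins lie on both sides.

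The 22 genes that did not pass the filter reached at most 3.66 CPM in any library, for *Kif23*, a kinesin of dividing cells. Of these, *Dynlt1c*, *Kif12*, *Kif18b*, *Kif2b*, *Kif2c*, *Tuba3b* and *Tubb1* were at 0 counts in all 8 libraries. At the edge of the filter, *Dynlt1a* reached 1 CPM in 4 libraries and was kept, and *Kif11*, *Kif19a*, *Kif26a* and *Tubg2* reached it in 3 and were not.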

How the data were processed

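Groups were taken from the sample titles, which read control or *Bbs8* knockout, and the authors describe the controls as *Bbs8*+/+ littermates. QuantSeq libraries read the 3′ end of each polyadenylated transcript, so counts do not depend on transcript length and levels compare transcript ends. The authors trimmed reads with BBDuk, aligned them to mm10 with STAR using Ensembl gene models and deposited uniquely mapped read counts per gene from htseq-count, without normalization. From 32.8% to 34.5% of reads per library did not map uniquely, and 17.0% to 20.6% lay in no gene, and both were left out of library sizes and tests. Symbols and coordinates were taken from GENCODE vM21 (GRCm38), the same genome build in a later release.

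Genes that reached 1 CPM in 4 or more libraries were kept. Counts were scaled by TMM, whose factors were 0.955 to 0.980 in *Bbs8*+/+ and 1.02 to 1.05 in *Bbs8*-/- libraries, and compared with edgeR 4.0.16 (quasi-likelihood F test, trended dispersion, Benjamini-Hochberg adjustment, R 4.3.3). The standard error of a log2 fold change was computed back from the test, as its size divided by the square root of the F statistic. Intervals are the estimate plus and minus 1.96 of these standard errors and are approximate. Paralog ratios used CPM plus a pseudocount of 1. Alternatives were DESeq2 1.42.0, edgeR's likelihood ratio test, library size alone, TMM without rod, cone, lens and erythrocyte genes, other filters, a replicate block, another pseudocount and each library left out. On simulated counts for 12889 genes of this comparison, 21 of 100 genes changed 1.5-fold and 49 of 100 changed 2-fold were recovered, and among those with a mean of 100 counts or more 19 of 40 and 32 of 33.

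The genes and all lists were chosen with earlier results of these data known. Named were *Ttc8*, every gene past the threshold, the 2 most abundant genes of each role, both genes of each pair, and the 5 largest rises and falls among listed partner genes. *Klc3*, *Klc4*, *Kif1c*, *Kif5a*, *Tuba4a*, *Tubb2b*, *Tubb3*, *Tubb4a*, *Tubb6*, *Dynlrb2*, *Dynlt1a*, *Dynlt1f*, *Dctn1*, *Dctn5*, *Dctn6*, the markers *Ttr*, *Otx2*, *Slc16a8*, *Krt8*, *Rpe65*, *Rdh5*, *Pmel*, *Best1*, *Glul*, *Dkk3*, *Gfap*, *Rax* and *Gja3*, and the partner genes beyond these 10 were named after their values were seen. Endothelial and microglial markers (5 and 8 genes tested) had no gene past the threshold, 2 of 6 fibroblast markers fell, and 2 of 19 inner retinal neuron markers rose and 1 fell.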

Additional observations from a re-analysis of the deposited data

Results flagged for a closer look

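In 5 of 70 groups of 4 libraries examined for the named genes, 1 library stood far from the other 3 of its genotype, and chance alone marks about 1 in 20 groups. *Tube1* was at 8.62 CPM in *Bbs8*-/- replicate 1, with the nearest other *Bbs8*-/- library at 4.66 CPM. *Klc2* was at 36.8 CPM in *Bbs8*+/+ replicate 4, with the next at 29.5 CPM. *Tubg1* was at 18.9 CPM in *Bbs8*-/- replicate 1, below the next at 25.2 CPM. *Kif18a* was at 9.14 CPM in *Bbs8*+/+ replicate 1, with the next at 2.04 CPM, and *Dync1li1* at 109 CPM in *Bbs8*-/- replicate 4, with the next at 84.2 CPM.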

How the results depend on the processing

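The falls of *Dync1h1*, *Dync1i2*, *Kif1b* and *Ktn1* and the rise of *Tubb2a* kept their direction and stayed past the threshold in all alternatives run. Scaling by library size alone moved the median log2 fold change of all genes from 0.02 to 0.11 and the calls over all genes from 704 rises and 877 falls to 1005 and 657. It gave 3 rises and 6 falls among the 60 transport genes, 13 rises in place of 8 among partner genes, *Tube1* at −1.15 (edgeR adjusted p = 0.0552), and positive log2 fold changes for *Tuba1b* (0.0411), *Tubb5* (0.0384), *Tubb4b* (0.0502), *Kif1a* (0.0116), *Dynlt3* (0.0147), *Dynlt1a* (0.0278), *Dctn5* (0.0694), *Tubb3* (0.0462) and *Tubb4a* (0.0492), none past the threshold. edgeR's likelihood ratio test gave 1 rise, without *Kif5b*.

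Libraries with equal replicate numbers showed no shared deviation (correlation of deviations of −0.0321 to 0.00672). This cannot show that they are unpaired, and the labels do not say what a number marks. With a replicate block the counts were 2 rises and 6 falls, without *Tube1* (log2 fold change −1.21, adjusted p = 0.0585).

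With each library left out, the 60 genes gave 1 to 2 rises and 5 to 7 falls, and the partner genes 6 to 9 rises and 11 to 14 falls. Log2 fold changes that changed sign, none past the threshold, ran from −0.310 to 0.0650 for *Tubg1*, −0.125 to 0.0164 for *Kif1a*, −0.0119 to 0.0726 for *Dynll2*, −0.0946 to 0.103 for *Tuba1a*, −0.0831 to 1.45 for *Kif18a*, −0.19 to 0.15 for *Tubb4a*, −0.11 to 0.65 for *Kif22*, −0.106 to 0.0147 for *Tuba1b* and −0.0995 to 0.0144 for *Tubb4b*. Ratios that changed sign ran from −0.0581 to 0.205 for *Tuba1a* to *Tuba1b*, −0.0952 to 0.208 for *Dync1li1* to *Dync1li2*, −0.13 to 0.24 for *Tubb4a* to *Tubb4b*, −0.0387 to 0.30 for *Kif5c* to *Kif5b* and −0.216 to 0.0679 for *Dynlrb1* to *Dynlt3*. The cause was not tested. Precision was low for rare transcripts, with an SE of 1.21 on the log2 scale for *Dynlt1a* at a mean of 0.948 CPM.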
